A study of Mus musculus with 17 samples.

Results

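Genes of cytotoxic lymphocytes, the T cells and natural killer cells that kill other cells, were followed in lung RNA from 17 Balb/c mice. The set was a list of 10 gene symbols: the granzymes Gzma, Gzmb and Gzmk, the pore protein gene Prf1, the granule membrane gene Nkg7, the receptor genes Klrd1, Klrk1 and Ncr1, the transcription factor gene Eomes, and the death ligand gene Fasl. Its rule used no measured value, but the genes were chosen with earlier results of these data known. Each symbol matched exactly 1 probe set with a single gene symbol, so all 10 were measured, among 19751 genes tested.

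Each mouse gave 1 lung and 1 Affymetrix array. In the saline group (6 mice) sensitization and challenge were both done with saline, and no antibody is named for these mice. In the isotype group (5 mice) both steps used ovalbumin (OVA), a model allergen, and the mice were given an isotype control antibody. In the anti-RGMb group (6 mice) both steps used OVA and the mice were given a monoclonal antibody against RGMb, a membrane co-receptor for bone morphogenetic proteins that binds neogenin. All groups shared the strain and the time of harvest, and ages are not given in the sources used here. Isotype minus saline therefore holds both OVA and an antibody, and no group had the anti-RGMb antibody without OVA. The work ran as 2 experiments, the first with 3 mice of each group and the second with 3 saline, 3 anti-RGMb and 2 isotype mice. Each mouse's experiment was read from its number in the array title and from the study's design text. Mice numbered 1, 2 and 3 were taken as experiment 1 and those numbered 1-2, 2-2 and 3-2 as experiment 2. With so few arrays their number limits the precision.

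Cytotoxic lymphocytes keep perforin and granzymes in secretory granules. On contact with a target cell perforin opens its membrane, and granzymes, which are serine proteases, enter and start cell death. Natural killer cells weigh signals from activating and inhibitory receptors before they release the granules, while CD8 T cells use the T cell receptor. In the airway, type 2 allergic inflammation is carried mainly by CD4 T cells, innate lymphoid cells, eosinophils and mast cells, and cytotoxic cells are a smaller part of the lung's lymphocytes.

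Promoters are shown for granzyme B and for the 3 members (granzyme A, perforin and Ncr1) with which its ratio separated all 3 groups within both experiments, as given below. RefSeq's table of mouse promoters (GRCm38.p6), matched by symbol, held 9 of the 10 members. The stretches are the 250 bases before the gene start, 5′ to 3′ on the gene's strand: Gzmb chr14:56262335-56262584 (minus strand), Gzma chr13:113100982-113101231 (minus strand), Prf1 chr10:61297586-61297835 (plus strand) and Ncr1 chr7:4337465-4337714 (plus strand). Capitals mark TGTGGT, the core of the runt site bound by RUNX factors, or its reverse complement.
Gzmb: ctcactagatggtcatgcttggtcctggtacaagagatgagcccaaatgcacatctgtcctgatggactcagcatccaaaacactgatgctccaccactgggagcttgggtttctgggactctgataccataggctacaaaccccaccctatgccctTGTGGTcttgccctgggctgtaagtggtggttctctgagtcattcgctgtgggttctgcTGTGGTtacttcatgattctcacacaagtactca
Gzma: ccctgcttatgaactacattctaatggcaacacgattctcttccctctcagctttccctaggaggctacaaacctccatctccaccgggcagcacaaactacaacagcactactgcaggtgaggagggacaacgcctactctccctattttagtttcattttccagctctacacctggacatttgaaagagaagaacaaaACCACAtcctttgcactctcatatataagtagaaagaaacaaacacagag
Prf1: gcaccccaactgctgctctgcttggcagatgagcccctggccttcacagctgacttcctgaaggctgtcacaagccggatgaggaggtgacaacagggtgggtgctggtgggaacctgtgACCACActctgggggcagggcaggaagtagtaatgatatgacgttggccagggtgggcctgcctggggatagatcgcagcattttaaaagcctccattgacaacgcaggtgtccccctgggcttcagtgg
Ncr1: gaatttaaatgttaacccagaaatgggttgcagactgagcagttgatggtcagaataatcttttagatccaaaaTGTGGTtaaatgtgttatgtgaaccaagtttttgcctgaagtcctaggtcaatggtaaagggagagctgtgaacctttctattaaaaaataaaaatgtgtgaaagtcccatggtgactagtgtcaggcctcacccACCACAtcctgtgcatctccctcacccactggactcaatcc
Searched on both strands, TGTGGT was in this window of 6 of the 9 members (Gzma, Gzmb, Prf1, Nkg7, Klrk1 and Ncr1), and in 14.0% of 32851 promoters of the same length. Gzmb and Ncr1 each held it at 2 places and the other 4 members at 1 place. The T-box element AGGTGTGA was in the window of Nkg7 alone among the 9, and in 1.12% of all promoters. These matches describe letters and not bound sites.

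The arrays differed more by experiment than by group, with median intensities per array from 120 to 125 in the first and from 362 to 386 in the second. Every comparison was therefore made within experiments, with the experiment as a block. Ranks on the arrays differed as well, in both directions. In saline mice Gzmb lay at percentiles 36.66 to 37.99 in experiment 1 and 42.68 to 50.8 in experiment 2. Gzma lay at 65.81 to 70.85 in experiment 1 and 53.22 to 60.98 in experiment 2. Gzmk, Klrk1 and Fasl were dim: they were below the 25th percentile of their array's genes in 15, 14 and 17 of the 17 arrays, while no other member did so in any array. Isotype mouse 1 was low for several members and anti-RGMb mouse 1 was high for several, as given below for each gene. The 10 endothelial and alveolar genes used as a check of the tissue, among them Sftpc and Cdh5, lay at a median percentile of 94.5 to 100 on the arrays. Of these, 8 fell in the isotype group (median log2 difference of the 10 from saline -0.41), while all 6 general leukocyte genes rose (median 0.97). In whole lung, fewer cells of a type, less RNA per cell and a smaller share of the lung's RNA cannot be told apart.

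Against saline, the isotype mice had more Gzmb, Gzmk and Eomes RNA and less Prf1 and Ncr1 RNA. Granzyme B was 1.44-fold higher (95% interval 1.15 to 1.81) and Ncr1 was 0.673-fold of saline (0.545 to 0.831). By limma with Benjamini-Hochberg adjustment over all genes, 3 members were higher, 2 were lower and 5 were not past an adjusted p of 0.05. Of all genes tested, 35.6% passed in this comparison, 14.6% higher and 21.0% lower. Without adjustment 6 members had p under 0.05, against 42.2% of all genes, and by the exact permutation test 6 did, against 41.6%. The members' median log2 difference was 0.02, against -0.04 for all genes. The members' median size of difference, sign aside, was 0.27 and that of all genes 0.12.

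**Figure D1:**
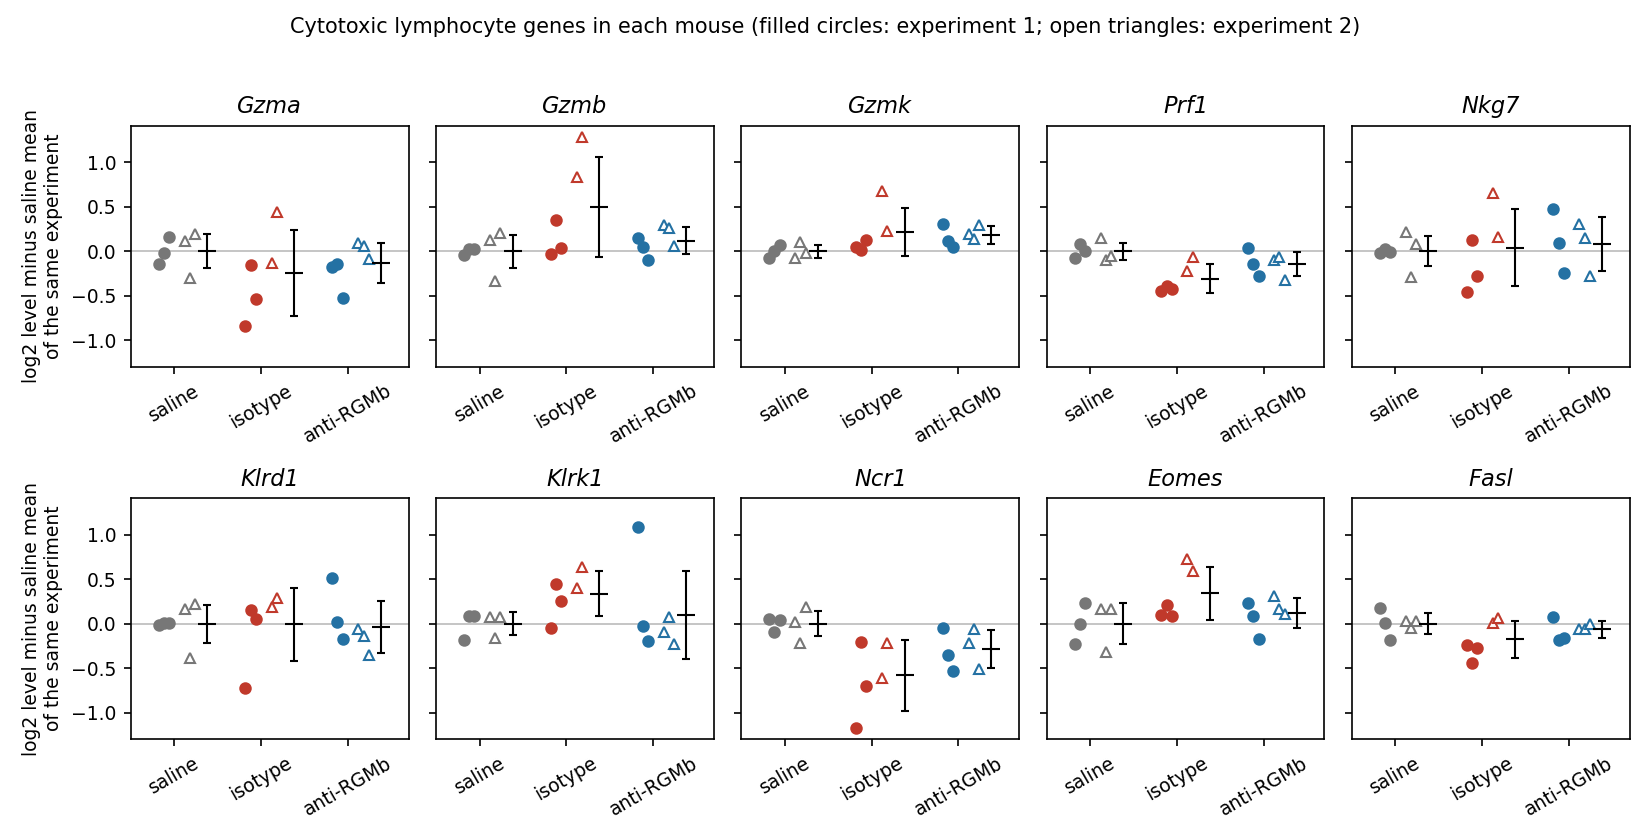
The log2 level of each member in each mouse minus the saline mean of the same experiment, with the mean and SD of each group as a black cross and bar. Gzmb is high in the 2 isotype mice of experiment 2, Prf1 is low in the 3 isotype mice of experiment 1, and Klrk1 stands high in 1 anti-RGMb mouse.

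Gzmb encodes granzyme B, which cuts caspases and Bid in the target cell. In experiment 2 its log2 intensity was 8.61, 8.15 and 8.69 in saline mice, 9.32 and 9.77 in isotype mice, and 8.78, 8.74 and 8.54 in anti-RGMb mice. Both isotype mice were above all 6 others, and the anti-RGMb mice overlapped with the saline mice. In experiment 1 the levels were 6.16, 6.23 and 6.23 in saline, 6.18, 6.56 and 6.25 in isotype, and 6.36, 6.26 and 6.11 in anti-RGMb mice, so the groups overlapped there. Over both experiments isotype minus saline was 0.53 ± 0.155 (log2, SE; limma adjusted p = 0.0120; exact permutation within experiments, 2-sided, p = 0.020). It was 1.06 within experiment 2 (adjusted p = 9.58e-05) and 0.12 within experiment 1 (adjusted p = 0.689). The call held when each mouse was left out in turn.

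Gzma encodes granzyme A, a tryptase that kills without caspases. In experiment 1 its log2 intensity was 7.92, 8.05 and 8.23 in saline mice and 7.23, 7.91 and 7.52 in isotype mice, all 3 isotype mice lying below saline. In experiment 2 it was 9.22, 8.82 and 9.30 in saline and 8.98 and 9.55 in isotype mice, which overlapped. The anti-RGMb mice had 7.88, 7.92 and 7.54 in the first experiment and 9.20, 9.17 and 9.03 in the second. Isotype minus saline was -0.21 ± 0.149 (adjusted p = 0.309), and without isotype mouse 2-2 it was -0.37 (adjusted p = 0.0462), so 1 mouse decided on which side of the threshold Gzma lay.

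Gzmk encodes granzyme K, found in memory-type T cells. Its level was 6.71, 6.89 and 6.76 in saline and 7.47 and 7.01 in isotype mice of experiment 2, with no overlap, and the anti-RGMb mice had 6.98, 6.92 and 7.08, also above all 3 saline mice. In experiment 1 saline mice spanned 4.98 to 5.12, isotype mice 5.06 to 5.17 and anti-RGMb mice 5.09 to 5.35. Isotype minus saline was 0.23 ± 0.087 (limma adjusted p = 0.0474), a call lost in 18 of 28 alternatives. Without isotype mouse 1-2 it was 0.12 (adjusted p = 0.173). Gzmk lay at the 19.5th to 31.3rd percentile of its array's genes.

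Prf1 encodes perforin, the pore that lets granzymes in. In experiment 1 its log2 intensity was 7.02, 7.18 and 7.10 in saline, 6.65, 6.71 and 6.68 in isotype and 7.14, 6.96 and 6.82 in anti-RGMb mice. The isotype mice were below every other mouse of that experiment. In experiment 2 the saline mice had 8.75, 8.51 and 8.55, the isotype mice 8.39 and 8.54, and the anti-RGMb mice 8.51, 8.54 and 8.28, with overlap. Perforin fell in isotype mice by 0.30 ± 0.077 (log2, SE; limma adjusted p = 0.00470), and the call held when each mouse was left out in turn. Within experiments the difference was -0.42 (adjusted p = 0.00381) and -0.14 (adjusted p = 0.373).

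Nkg7 encodes a granule membrane protein needed for efficient release. Isotype mice lay at -0.45, 0.13 and -0.28 relative to the saline mean in experiment 1 and at 0.65 and 0.16 in experiment 2. Anti-RGMb mice lay at 0.47, 0.10 and -0.25, and at 0.30, 0.15 and -0.28. The groups overlapped in both experiments, and isotype minus saline was 0.06 ± 0.165 with a 95% interval of -0.29 to 0.40 (adjusted p = 0.843).

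Ncr1 encodes NKp46, an activating receptor that marks natural killer cells and some innate lymphoid cells in mice. In experiment 1 its log2 intensity was 6.65, 6.51 and 6.65 in saline mice, 5.43, 6.40 and 5.91 in isotype mice and 6.56, 6.25 and 6.08 in anti-RGMb mice. All 3 isotype mice were below saline, mouse 1 by the most (-1.17 from the saline mean). In experiment 2 saline mice had 8.51, 8.27 and 8.67, isotype mice 7.87 and 8.27, and anti-RGMb mice 8.27, 8.42 and 7.97, with the upper isotype value equal to the lowest saline value. Ncr1 fell in isotype mice by 0.57 ± 0.144 (log2, SE; limma adjusted p = 0.00428). Without isotype mouse 1 the call held at -0.43 over both experiments, the smallest fall with any 1 mouse left out.

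Klrd1 encodes CD94, the partner of NKG2A and related chains in receptors for the nonclassical molecule Qa-1. Isotype mouse 1 lay at -0.72 from the saline mean, while the other 4 isotype mice lay at 0.05 to 0.29. Anti-RGMb mouse 1 was the highest of its group at 0.51, and the other 5 spanned -0.35 to 0.01. Isotype minus saline was -0.01 ± 0.172 (adjusted p = 0.982; 95% interval -0.37 to 0.35). Klrc1, which encodes the NKG2A chain, differed by 0.35 ± 0.182 and was not past the threshold either (adjusted p = 0.165).

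Klrk1 encodes NKG2D, an activating receptor for stress-induced ligands on target cells. In experiment 2 isotype mice had log2 intensities of 7.19 and 7.43, above the saline mice at 6.87, 6.63 and 6.87 and the anti-RGMb mice at 6.69, 6.87 and 6.56. In experiment 1 the saline mice had 4.54, 4.81 and 4.81, the isotype mice 4.67, 5.17 and 4.97, and the anti-RGMb mice 5.81, 4.69 and 4.53. Anti-RGMb mouse 1 was 1.09 above the saline mean, and the other 5 of its group spanned -0.23 to 0.08. With all mice, isotype minus saline was 0.33 ± 0.186 (limma adjusted p = 0.189). Without anti-RGMb mouse 1 the difference was 0.35 with an adjusted p of 0.00952.

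Eomes encodes eomesodermin, a T-box factor of natural killer cells and memory CD8 T cells. Both isotype mice of experiment 2, at 8.58 and 8.44, were above the saline mice (8.01, 7.53 and 8.01) and the anti-RGMb mice (8.16, 8.01 and 7.96). In experiment 1 the isotype mice at 6.15, 6.25 and 6.13 lay within the saline range of 5.82 to 6.28, and the anti-RGMb mice spanned 5.87 to 6.28. Eomes rose in isotype mice by 0.36 ± 0.116 (limma adjusted p = 0.0210). The call was lost without saline mouse 1 (adjusted p = 0.050, not under the threshold), without isotype mouse 1-2 (0.0825) and without isotype mouse 2-2 (0.0622). Tbx21, the gene of the related factor T-bet, differed by 0.07 ± 0.074 (adjusted p = 0.558).

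Fasl encodes Fas ligand, which triggers death through Fas without granules. In experiment 1 its log2 intensity was 4.96, 4.80 and 4.61 in saline, 4.54, 4.35 and 4.51 in isotype and 4.86, 4.61 and 4.63 in anti-RGMb mice, the isotype mice lying below all others. In experiment 2 saline mice had 6.62, 6.55 and 6.63, isotype mice 6.60 and 6.67, and anti-RGMb mice 6.54, 6.54 and 6.60. Isotype minus saline was -0.16 ± 0.078 (adjusted p = 0.117), and Fas, the receptor gene, differed by 0.00 ± 0.062 (adjusted p = 0.994). Fasl lay below the 25th percentile of genes on all 17 arrays.

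With the anti-RGMb antibody, no member differed from isotype past the threshold. Granzyme B came closest, 0.753-fold of isotype (95% interval 0.600 to 0.944), or -0.41 ± 0.155 on the log2 scale (limma adjusted p = 0.0709; exact permutation p = 0.035). Of all genes tested, 21.2% passed in this comparison. In limma's fit 0 of 10 members passed and 1 had an unadjusted p under 0.05, against 31.7% of all genes, and 1 had an exact permutation p under 0.05, against 29.0%. Other members had log2 differences of -0.24 (Eomes) to 0.29 (Ncr1). Within experiment 2 alone Gzmb was lower by 0.86 (adjusted p = 0.00126) and Eomes by 0.46 (adjusted p = 0.0448), where 19.9% of genes passed, and within experiment 1 no member passed, where 6.48% did.

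The granzyme B difference from isotype crossed the threshold when some single mice were left out. Without isotype mouse 1 it was -0.51 (limma adjusted p = 0.0282), without isotype mouse 3 -0.49 (0.0339) and without saline mouse 2-2 -0.42 (0.0366). Over all single mice left out it ranged from -0.51 to -0.23. Klrk1 passed only where anti-RGMb mouse 1 was left out, at -0.45 (adjusted p = 0.00443), and at -0.53 (adjusted p = 0.000711) where isotype mouse 1 was left out as well.

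Against saline, the anti-RGMb mice had no member past the threshold, where 6.50% of all genes passed. In limma's fit 1 member had an unadjusted p under 0.05, Gzmk at 0.18 ± 0.083 (adjusted p = 0.233), against 19.2% of all genes. By the exact permutation test 21.5% of all genes and 2 members had p under 0.05, Gzmk (p = 0.010) and Ncr1 (p = 0.040), the latter at -0.29 ± 0.137 (adjusted p = 0.267). Intervals at 95% ran from -0.58 to 0.00 for Ncr1 and from -0.19 to 0.43 for Gzmb, so differences of those sizes were not resolved. Within experiments 1 and 2 taken singly 0 members passed, where 3.86% and 3.31% of genes did. For Gzmk alone all anti-RGMb mice lay above all saline mice in experiment 2, which 8.07% of genes showed. The 3 comparisons share their groups and are not independent of each other.

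Within the experiments taken singly, different members separated isotype from saline mice, and no member's difference between the experiments passed the adjusted test. The arrays' intensity scale also differed between the experiments, as given above, and dim signals are compressed, as given below. The part of either in the differences between experiments was not tested. In experiment 1, 4 members had all isotype mice below all saline mice (Gzma, Prf1, Ncr1 and Fasl) and 0 had them above, where 21.6% and 14.3% of all genes did. In experiment 2, 4 other members had both isotype mice above all saline mice (Gzmb, Gzmk, Klrk1 and Eomes) and 0 below, against 20.0% and 23.7% of all genes. By limma within each experiment 3 members passed in the first, all lower (Prf1, Ncr1 and Fasl), where 20.4% of genes passed, and 3 in the second, all higher (Gzmb, Gzmk and Eomes), where 29.6% did. No member separated the groups the same way in both experiments in any comparison. Of all genes 11.7% did so upward and 15.1% downward for isotype minus saline, 7.57% and 7.26% for anti-RGMb minus isotype, and 4.70% and 3.88% for anti-RGMb minus saline. The median isotype minus saline difference was -0.19 in experiment 1 and 0.32 in experiment 2, and over all genes it was -0.04 in each. For all 10 members the signed difference was higher in experiment 2, which 50.3% of all genes showed, by a median of 0.40. The size of the difference was smaller there for Gzma (-0.51 in experiment 1, 0.15 in experiment 2) and Prf1 (-0.42, -0.14). It was also smaller for Ncr1 (-0.69, -0.41) and Fasl (-0.32, 0.04). The members were measured in the same few mice and are not independent of each other. By limma's interaction term 0 members passed the adjusted threshold, against 0.668% of genes, and 5 had an unadjusted p under 0.05 (Gzma, Gzmb, Gzmk, Eomes and Fasl), against 10.1% of genes. Gzmb differed most, by 0.94 ± 0.216 (adjusted p = 0.0625).

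**Figure D2:**
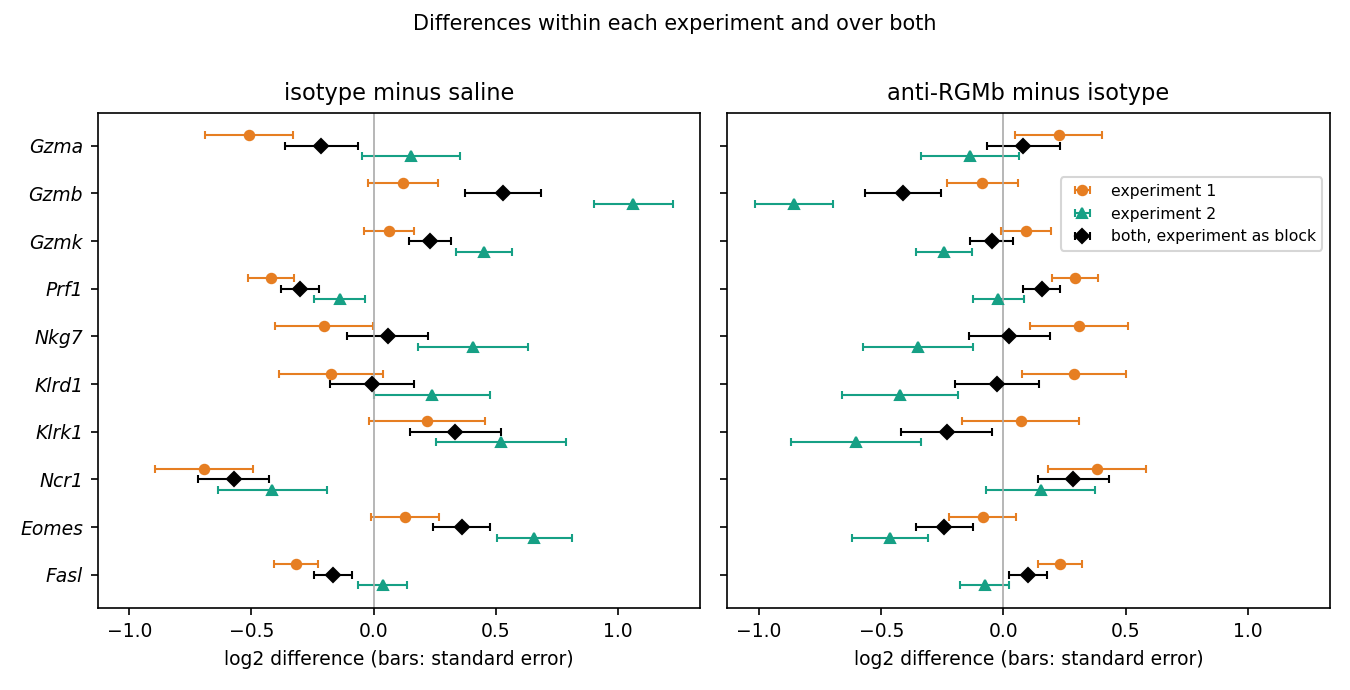
Log2 difference with its standard error for each member, within experiment 1 (circles), within experiment 2 (triangles) and over both with the experiment as block (diamonds). In isotype minus saline all 10 triangles lie to the right of the circles, and in anti-RGMb minus isotype all 10 lie to the left.

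The same isotype mice enter anti-RGMb minus isotype, where all 10 members were lower in experiment 2 than in experiment 1, by a median of -0.37. In experiment 2 all anti-RGMb mice were below both isotype mice for 5 members (Gzmb, Klrd1, Klrk1, Eomes and Fasl), against 18.8% of genes. In experiment 1 they were above all isotype mice for 2 members (Prf1 and Fasl), against 14.0% of genes. The interaction had an unadjusted p under 0.05 for 6 members and an adjusted p under 0.05 for 0, against 11.3% and 0.471% of genes. Leaving out isotype mouse 1, chosen after its values were seen, left all 10 members higher in experiment 2 for isotype minus saline (median 0.39), with Ncr1 at 0.04 and Klrd1 at 0.14. For anti-RGMb minus isotype 9 of 10 were then lower in experiment 2. Anti-RGMb minus saline, which lacks the isotype mice, had 6 of 10 members higher in experiment 2, against 50.4% of genes, and 0 with an unadjusted interaction p under 0.05, against 3.03%.

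The ratio of granzyme B to granzyme A separated the 3 groups. The log2 ratio of Gzmb to Gzma, as the difference from the saline mean of the same experiment, was -0.14 to 0.10 in saline mice, 0.14 to 0.43 in anti-RGMb mice and 0.50 to 0.97 in isotype mice. None of the 3 groups overlapped with another. The isotype values were 0.80, 0.50 and 0.58 in experiment 1 and 0.97 and 0.85 in experiment 2. The anti-RGMb values were 0.33, 0.19 and 0.43, and 0.21, 0.21 and 0.14. Mean ratios were 1.67-fold of saline in isotype mice (log2 0.74 ± 0.193, SD, n = 5) and 1.19-fold in anti-RGMb mice (0.25 ± 0.107, SD, n = 6).

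**Figure D3:**
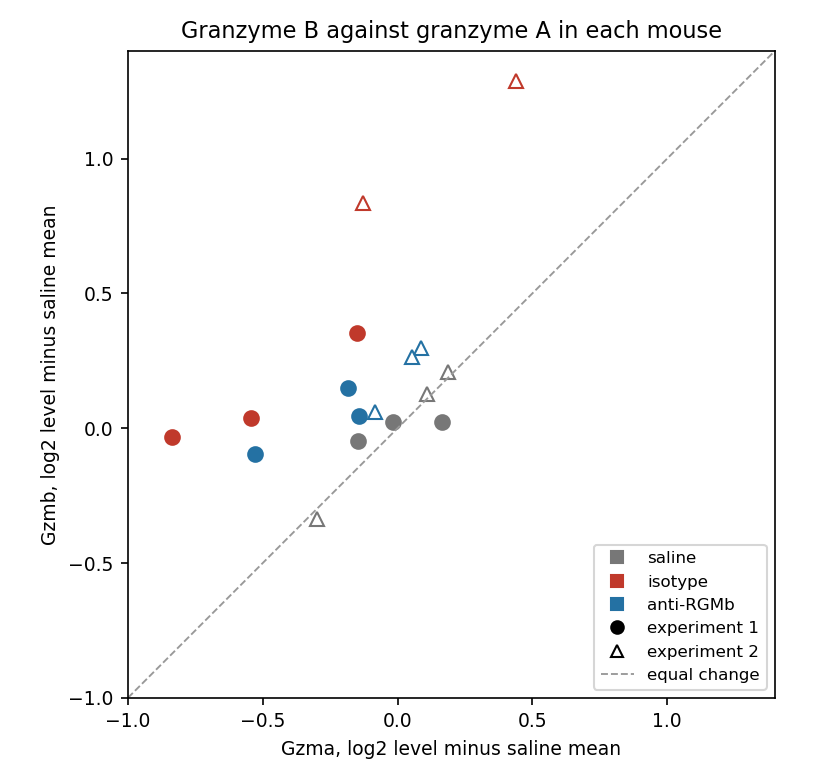
Each mouse's Gzmb against its Gzma, both as log2 level minus the saline mean of its experiment, with colours for groups and symbols for experiments. Isotype mice lie farthest above the dashed line of equal change, at a log2 ratio of 0.50 to 0.97, anti-RGMb mice lie between at 0.14 to 0.43, and saline mice lie along the line.

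This ratio was picked from the 45 pairs of members after the values were seen and has no test. In 15 of the 45 pairs the isotype and saline mice did not overlap in either experiment, against 31.4% of all pairs of genes. The anti-RGMb and isotype mice did not overlap in 5 pairs, against 16.7%, and the anti-RGMb and saline mice in 8, against 9.76%. Among the 45 pairs only Gzmb with Gzma, Prf1 and Ncr1 separated the groups in all 3 comparisons, which 5.07% of all gene pairs did, so such a ratio is not rare on these arrays. Paired with all other genes in turn, Gzmb gave the order saline, anti-RGMb, isotype without overlap for 228 of 19750 genes, or 1.15%. For single comparisons it did so for 27.7% of genes in isotype over saline, 10.4% in anti-RGMb under isotype and 2.86% in anti-RGMb over saline. The ratio of another gene to Gzma did so for 6.42%, 3.36% and 3.03% of genes. The Gzmb to Ncr1 ratio averaged 1.08 ± 0.421 in isotype (SD, n = 5) and 0.41 ± 0.134 in anti-RGMb mice (SD, n = 6), and the Gzmb to Prf1 ratio 0.80 ± 0.398 and 0.26 ± 0.118. Probe sets differ in response, so a ratio shows unequal change and not the amount of one RNA relative to the other.

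Among mice of 1 group and experiment, most members rose and dipped together. After subtracting the mean of each group and experiment, Gzma and Gzmb had a Pearson r of 0.92 over 17 mice, Klrd1 and Ncr1 0.86, and Gzma and Ncr1 0.85. Gzmk and Fasl stood aside: Gzmk had r of -0.53 with Gzmb and -0.39 with Gzma, and no r of Fasl was above 0.28. These values describe 17 arrays that share 2 experiments and a few mice far from the rest, and they carry no test. Without the group means subtracted, r of Gzma and Gzmb was 0.43.

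**Figure D4:**
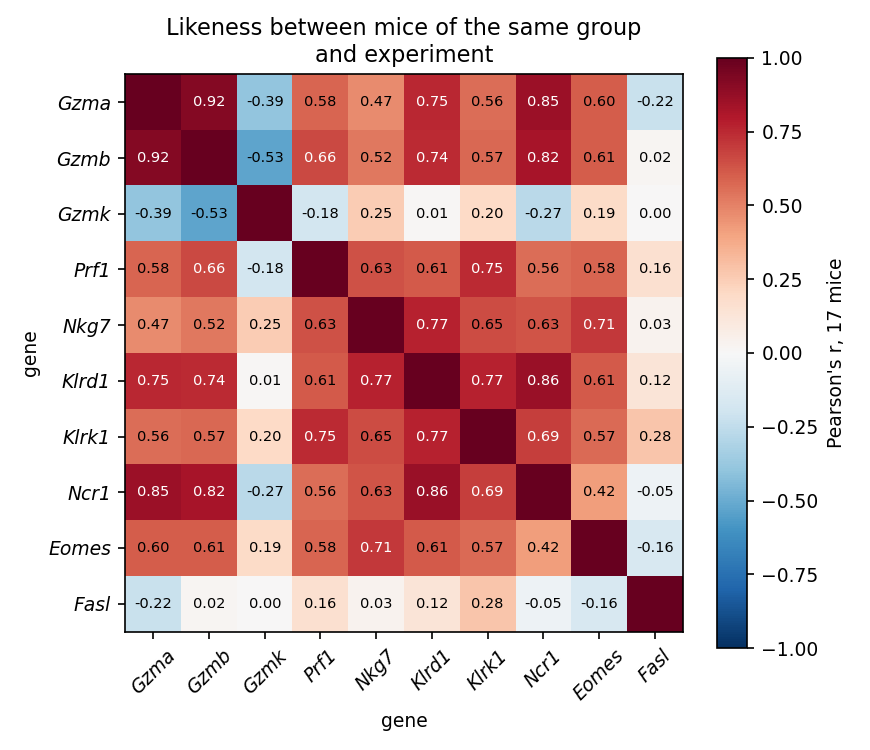
Pearson's r for each pair of members over 17 mice, after the mean of each group and experiment was subtracted (colour scale from -1 to 1). Gzma, Gzmb, Klrd1 and Ncr1 share r of 0.74 to 0.92, while Gzmk and Fasl have values from -0.53 to 0.28.

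The residual spread differed between members. Klrk1, Klrd1, Nkg7, Ncr1 and Gzma had residual SDs of 0.28, 0.25, 0.23, 0.23 and 0.21 on the log2 scale, above those of 96.2% to 98.6% of genes. Prf1 at 0.096 and Fasl at 0.0918 were near the median of all genes, 0.0972. Perforin's fall of 0.30 passed the threshold and Klrk1's difference of 0.33 did not.

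Genes with the most similar residual pattern over the 17 mice included other cytotoxic cell genes for some members. Most of these nearest genes were outside the members and lists, and how often any pair of genes reaches such an r is not given here. Gzmb (0.92) led for Gzma, Klrb1f (0.94) for Ncr1, and Klrc1 (0.91) was among the 5 nearest to Klrd1. These orders changed without anti-RGMb mouse 1, where Zbp1 (0.93) led for Gzma ahead of Gzmb (0.92), and Irgm1 (0.95) led for Ncr1 ahead of Klrb1f (0.94). The 5 nearest to Klrd1 were then Xaf1 (0.94), Rtp4, Zfp954, Btc and Oas1b, without Klrc1. Zbp1, Irgm1, Xaf1, Rtp4 and Oas1b are known as interferon-induced genes. Fcer1g (0.93), the adaptor of NKp46 and of Fc receptors, led for Nkg7. Tra2b, Arfgap2, Wscd2, Pan2 and Armc7 led for Gzmb, Prf1, Gzmk, Eomes and Fasl, at 0.92, 0.94, 0.91, 0.87 and 0.81. With only the experiment means subtracted, the 5 nearest to Gzma lacked Gzmb, those to Ncr1 lacked Klrb1f and those to Klrd1 lacked Klrc1. Klrb1c (0.83) was then among the 5 nearest to Gzma and Klrd1 (0.795) among those to Nkg7, and Il12rb1 (0.89) led for Gzmk. Dnph1 (0.94) led for Gzmb.

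For Klrk1 the 5 nearest genes were Slfn8 (0.97), Milr1 (0.97), Ifit1 (0.96), Cmpk2 (0.96) and Ifi27l2a (0.96). Slfn8, Ifit1, Cmpk2 and Ifi27l2a are known as interferon-induced genes. In anti-RGMb mouse 1 these 5 stood 2.18, 1.30, 1.98, 1.03 and 2.78 log2 units above saline, while the other 5 anti-RGMb mice reached at most 0.58 for any of them. Isotype mice were also above saline for Slfn8 (0.77 to 1.60), Milr1 (0.71 to 1.28) and Ifi27l2a (0.44 to 1.56), and they spanned -0.23 to 0.76 for Ifit1 and -0.46 to 0.02 for Cmpk2. Without that mouse their r with Klrk1 was 0.83 to 0.89, and its 5 nearest genes began with Atg14 (0.92) and held Klra3 (0.91), a Ly49 receptor gene of natural killer cells. The part of that mouse's interferon-type genes in its Klrk1 value was not tested.

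**Figure D5:**
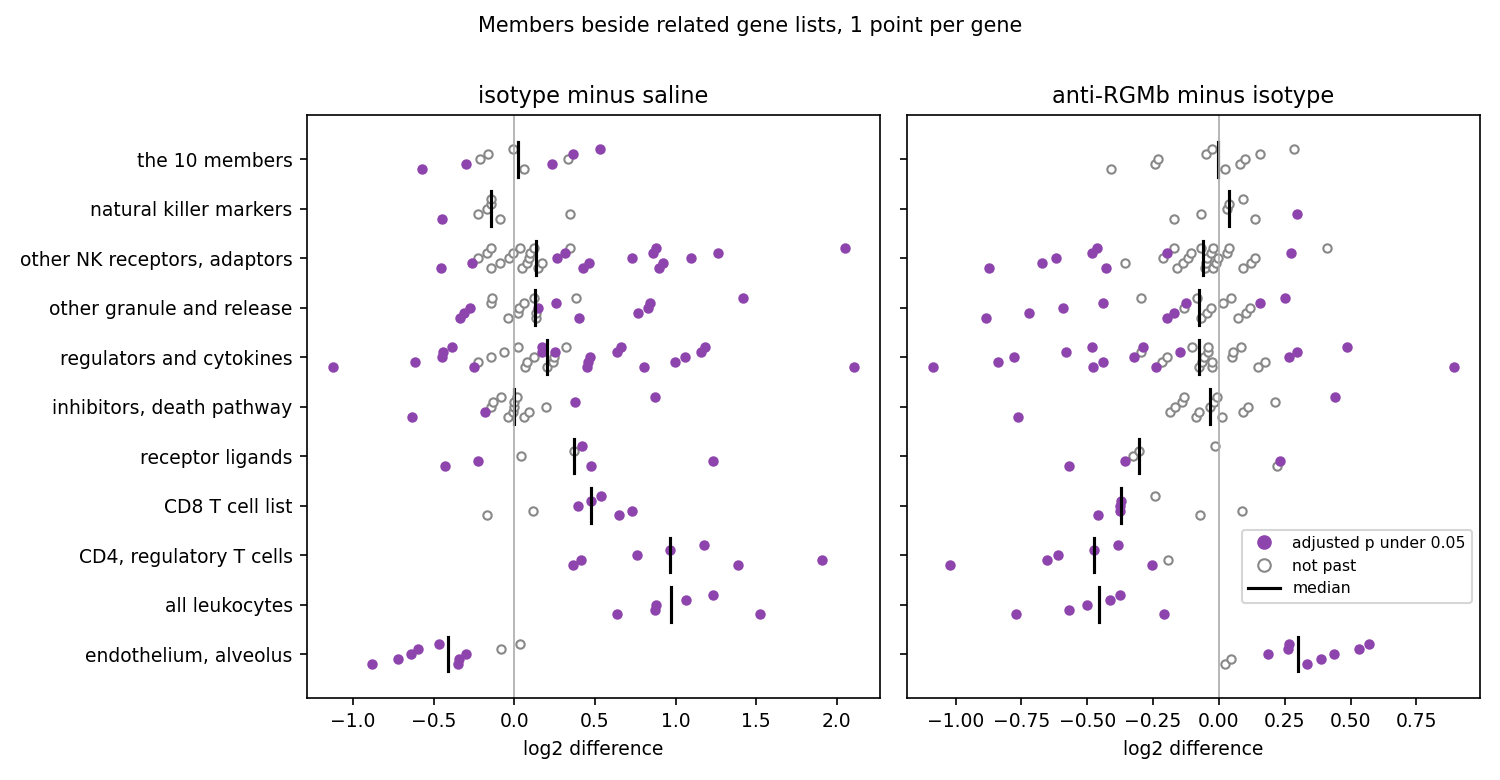
Log2 differences of the 10 members and of related gene lists, 1 point per gene, filled where the limma adjusted p is under 0.05, with the list median as a bar. The members spread around 0 in both comparisons, with a median of 0.02 for isotype minus saline. Natural killer markers lie mostly left of 0 in the first panel, with a median of -0.15, and on both sides of it in the second. Leukocyte genes lie right in the first panel and left in the second.

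Other granule genes passed in both directions. Of 20 genes of granule content and release, 7 rose, 3 fell and 10 did not pass in isotype minus saline, with a median of 0.13. This and the lists that follow are read against the 35.6% of all genes that passed in isotype minus saline, 21.2% in anti-RGMb minus isotype and 6.50% in anti-RGMb minus saline. Cst7, the inhibitor cystatin F, rose by 1.42 ± 0.151 (adjusted p = 8.50e-07). Ctsc, the protease that activates granzymes by trimming them, rose by 0.77 ± 0.079, Lyst by 0.84 ± 0.104 and Gzmc by 0.83 ± 0.159, while Vamp8 fell by 0.33 ± 0.055. With the anti-RGMb antibody 2 of the 20 were higher and 7 lower than isotype: Cst7 by -0.88, Gzmc by -0.72, Lyst by -0.59 and Ctsc by -0.44. Of the 20, 2 passed within experiment 1 and 6 within experiment 2, and the 9 calls over both became 4 without isotype mouse 2, 5 without isotype mouse 2-2 and 5 without anti-RGMb mouse 3. Ctsc, Cst7 and Lyst are also expressed in myeloid cells, and in anti-RGMb minus saline 2 of the 20 passed, both higher (Ctsc 0.33 and Cst7 0.54).

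Receptor and adaptor genes that passed were mostly higher in isotype mice. Of 30 measured natural killer receptor and adaptor genes, 12 rose, 2 fell and 16 did not pass in isotype minus saline. Fcgr3 rose by 2.05 ± 0.089 and Tyrobp by 1.10 ± 0.075, and macrophages and granulocytes also express both. Tigit, an inhibitory receptor gene of T cells and natural killer cells, rose by 1.26 ± 0.153, Klrb1a by 0.92 ± 0.0995, Klrb1f by 0.90 ± 0.127 and Klrg1 by 0.88 ± 0.102. Tigit and Klrb1f were named here after their values were seen. Hcst, which encodes the DAP10 adaptor of NKG2D, rose by 0.26 ± 0.060 (adjusted p = 0.00207) and was lower by 0.20 with the anti-RGMb antibody (adjusted p = 0.0263), by 0.087 within experiment 1 (adjusted p = 0.604) and 0.345 within experiment 2 (0.00343). In anti-RGMb minus isotype 7 of the 30 were lower and 1 higher, Fcgr3 by -0.87, Klrb1a by -0.62, Sh2d2a by -0.48 and Tyrobp by -0.43, and in anti-RGMb minus saline 8 were higher and 0 lower, 5 of 30 passing without anti-RGMb mouse 3. Of the 30, 3 passed in anti-RGMb minus isotype within experiment 1 and 10 within experiment 2. Sh2d2a was -0.18 in the first (adjusted p = 0.317) and -0.88 in the second (2.06e-05), and this difference between the experiments passed (limma interaction, adjusted p = 0.0355).

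Ligands for these receptors were measured in part, 7 of 15 listed. In isotype minus saline 3 rose (Cd48 by 1.23, H60b by 0.48 and Clec2i by 0.42) and 2 fell, among them Pvr by 0.23. H60b encodes a ligand of NKG2D, and it was lower by 0.35 in anti-RGMb than in isotype mice (adjusted p = 0.0266), as was Cd48 by 0.57, while Pvr was 0.23 higher. The H60b difference was -0.06 within experiment 1 (adjusted p = 0.902) and -0.73 within experiment 2 (0.000439), and the interaction did not pass (adjusted p = 0.0954). The 5 ligand calls of isotype minus saline became 3 without any 1 of saline mice 1-2 and 3-2 and isotype mice 1, 1-2 and 2-2. The 3 of anti-RGMb minus isotype became 1 without any 1 of isotype mice 1-2 and 2-2 and anti-RGMb mouse 2-2. In anti-RGMb minus saline only Cd48 of the 7 passed (0.66), and Cd48 is also on the list of general leukocyte genes.

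Among 15 measured genes of granzyme inhibitors and death pathways, 2 rose and 2 fell in isotype minus saline, 26.7% of the list. Tnfsf10, which encodes the death ligand TRAIL, fell by 0.64 ± 0.068 and was 0.44 higher in anti-RGMb than in isotype mice. Tnfrsf23, a decoy receptor, went the other way at 0.88 ± 0.112 and -0.76. Bid, a substrate of granzyme B, rose by 0.38, Serpinb6a fell by 0.18, and Serpinb9, which encodes the inhibitor of granzyme B, differed by -0.15 ± 0.078 (adjusted p = 0.174). In anti-RGMb minus isotype 1 was higher and 1 lower, and none passed in anti-RGMb minus saline, where limma gave 0 of 15.

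Of 31 measured regulators and cytokines of cytotoxic cells, 14 rose and 6 fell in isotype minus saline, 64.5% of the list, with a median of 0.21. Ccl3 (2.11 ± 0.206), a chemokine that macrophages also make, Cxcr6 (1.18 ± 0.117) and Nfil3 (1.00 ± 0.135), a factor of natural killer cell development, rose, and Il18r1 fell by 0.62 ± 0.078. In anti-RGMb minus isotype 4 were higher, with Il18r1 at 0.49, and 11 lower, with Ccl3 at -1.08, Il21r at -0.84 and Il21 at -0.78. Within experiment 1, 3 of the 31 passed and within experiment 2, 14, and the 15 over both became 9 without isotype mouse 2-2 and 9 without anti-RGMb mouse 2-2. Il21r was -0.31 in the first experiment (adjusted p = 0.146) and -1.52 in the second (4.04e-06), and its interaction passed (adjusted p = 0.00735). In anti-RGMb minus saline 2 were higher and 1 lower, 9.68% of the list.

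Cell type markers moved beside the members, and their part in the members' values was not tested. Of 7 measured natural killer genes outside the set, 0 rose and 1 fell in isotype minus saline, S1pr5 by 0.45 ± 0.094. The other 6 had differences from -0.23 (Klri2) to 0.35 (Klrc1). In anti-RGMb minus isotype S1pr5 alone of the 7 passed, at 0.30 ± 0.094 (limma adjusted p = 0.0308), and none passed within either experiment taken singly. Of the 7, Klrb1c, Klre1, Klri2 and Klra8 lay below the 25th percentile on all 17 arrays and Klrc1 on 12, so this list has little signal. The list's mean level per mouse lay between -0.36 and 0.05 in isotype, -0.22 and 0.21 in anti-RGMb and -0.19 and 0.11 in saline mice. Isotype mouse 1 was the lowest and anti-RGMb mouse 1 the highest for this list, as they were for Klrd1. In the CD8 T cell list 5 of 7 rose, and these were the general T cell genes Cd3d, Cd3e, Cd3g, Cd5 and Cd6. Cd8a at 0.12 ± 0.127 and Cd8b1 at -0.17 ± 0.112, the genes of the CD8 chains themselves, did not pass. All 7 genes of CD4 and regulatory T cells rose (median 0.96), and 6 were lower in anti-RGMb than in isotype mice. Of the 7, 1 passed in anti-RGMb minus isotype within experiment 1 and 7 within experiment 2. For Ikzf2 the difference between the experiments passed (limma interaction, adjusted p = 0.0378). All 9 proliferation genes rose (median 1.99) and were lower with the antibody (median -1.08). Mean levels of the general T cell and CD8 list lay between 0.22 and 0.73 in isotype, -0.11 and 0.55 in anti-RGMb and -0.15 and 0.13 in saline mice.

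Granzyme B is also known in cells other than killer lymphocytes, and lists of other cell types moved. Of 13 mast cell and basophil genes, 10 rose and 2 fell in isotype minus saline (median 0.55), and their mean level was 0.39 to 0.70 in isotype mice of experiment 1 and 1.06 to 1.4 in those of experiment 2. By limma's interaction term 2 of the 13 passed, Mcpt1 at 2.98 (adjusted p = 0.000575) and Mcpt2 at 3.47 (0.00206). These were the largest differences between experiments on the list, and its mean leans on them. Tpsb2 (-0.08), Gata2 (-0.07) and Kit (-0.35) went the other way. Plasmacytoid dendritic cell genes rose in 2 and fell in 1 of 5, with a mean level of 0.08 to 0.37 in isotype mice of experiment 1 and 0.52 to 0.64 in those of experiment 2. Of 5 measured genes of group 2 innate lymphoid cells, 3 rose and 1 fell. The part of these cells in the Gzmb difference between the experiments was not tested.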

How the data were processed

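The deposited values are probe set intensities on a linear scale, which the authors computed with RMA, per the submitters' processing notes, in a version not given in the sources used here. RMA corrects background, normalizes arrays and summarizes the probes of a set. The linear scale was read from the values. RMA compresses differences of dim probe sets. Here log2 was taken of the deposited intensities with no constant added.

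Probe sets with 1 gene symbol in the platform annotation were used, the brightest over all arrays where a gene had several (893 genes), which left 19751 genes of 24679 probe sets. A mean per group with the experiment as a block was fitted with limma 3.58.1 (lmFit and eBayes, prior degrees of freedom 4.32) in R 4.3.3, and p-values were adjusted by Benjamini-Hochberg over all genes of a comparison, 2-sided. Differences within experiments and their interaction came from a fit of 1 mean for each group in each experiment. Exact permutations of single members stayed within experiments (200 for comparisons with isotype and 400 for the other, smallest p 0.005). The fit was tested on simulated data. Cell type markers and pathway genes came from 14 lists, 163 of 183 genes measured. Named genes were the 10 members, up to 4 genes per list with the smallest p in isotype minus saline and in anti-RGMb minus isotype, the 5 most alike genes for likeness (the leading ones are named), and others where a sentence on a member turned on them. Hcst, Klrc1, Tbx21, Fas, Serpinb9, Klra3, Cd8a and Cd8b1 were of that last kind. Cd3e and the genes called in anti-RGMb minus saline were named because counts were 5 or fewer, and Klrb1c, Klre1, Klri2 and Klra8 because they are dim. Mcpt1, Mcpt2, Tpsb2, Gata2, Kit, Ikzf2, Aurkb, Cdk1 and Siglech were named for how they differed between the experiments. All of these were named after their values were seen.

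The members and lists were chosen with earlier results of these data known. Mouse numbers 1 to 3 were checked as pairs: residuals of same-numbered mice correlated at -0.60 to 0.30 over 16 pairs, 3 of them above 0.1, so mice were treated as unpaired. Alternatives changed the block, the normalization, the added constant, the filter on dim genes, the choice of probe sets, the variance model, the samples fitted and each mouse in turn.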

Additional observations from a re-analysis of the deposited data

Results flagged for a closer look

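In 30 groups of mice tested for a member lying far from its group, 2 had such a mouse, and chance gives about 1 in 20 groups. Klrd1 in isotype mouse 1 was -0.724 from the saline mean of its experiment, while the other 4 isotype mice lay at 0.0518 to 0.289. Klrk1 in anti-RGMb mouse 1 was 1.09 above the saline mean, while the other 5 lay at -0.232 to 0.0795.

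For Fasl every isotype mouse of experiment 1 lay below the saline mean, while those of experiment 2 lay 0.0051 and 0.0686 above it, against a saline range of -0.0535 to 0.0282. The difference between the experiments was 0.356 (limma interaction, unadjusted p = 0.0185, adjusted p = 0.334). For anti-RGMb minus isotype it was -0.308 (unadjusted p = 0.0372, adjusted p = 0.409), and the same isotype mice enter both. Neither interaction passed the adjusted threshold, so a difference between the experiments was not shown.

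Outside the 10 members, some genes of the related lists differed between the experiments by limma's interaction term with adjusted p under 0.05. In isotype minus saline, experiment 2 minus experiment 1 was 1.12 for Cst7 (adjusted p = 0.000575), 1.03 for Tigit (0.0097), 0.985 for Il21 (0.0129), 0.956 for Il21r (0.0174) and 0.811 for Runx3 (0.00648). In anti-RGMb minus isotype, which shares the isotype mice, it was -0.887 for Cst7 (adjusted p = 0.00735), -0.879 for Tigit (0.0395), -0.818 for Il21 (0.0495), -1.21 for Il21r (0.00735), -0.641 for Runx3 (0.0395), -0.702 for Sh2d2a (0.0355) and -0.874 for Nfil3 (0.0421). Among the cell type lists, Aurkb (1.06, adjusted p = 0.0149) and Cdk1 (0.916, 0.0435) also passed in isotype minus saline. Siglech (-0.975, 0.0351) passed in anti-RGMb minus isotype, and Mcpt1, Mcpt2 and Ikzf2 are given above. Of all genes 0.668% and 0.471% passed in these comparisons. These tests were added after the values were seen. The part of the experiments' different intensity scales in these differences was not tested.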

How the results depend on the processing

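Over 855 member values in alternatives, 765 kept their direction and their side of the threshold, 29 were weaker, 15 stronger and 46 changed sign. Prf1 and Ncr1 in isotype minus saline kept their call with each mouse left out (adjusted p 0.00109 to 0.0159 and 0.00103 to 0.0146), as did Gzmb (0.00413 to 0.0468). Gzmk lost its call in 18 of 28 alternatives. For the related lists and cell markers, 1083 of 1218 counts stayed within 1.5 times and 135 did not, of which 38 came with no replicate block, 23 from a single experiment and 43 with 1 mouse left out.

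With no replicate block (the experiment left out), 0 members passed in isotype minus saline, where 35 of all genes passed, since the experiments' levels then enter the spread. With the mouse number as a replicate block, 4 members passed (Gzmk at adjusted p = 0.103), and the numbers do not pair the mice. The 5 calls of isotype minus saline became 3 with the dimmest 40% of genes left out, 3 in experiment 1 alone (all lower), 3 in experiment 2 alone (all higher), and 3 to 6 with 1 mouse left out. The 0 calls of anti-RGMb minus isotype became 1 with dim genes left out, 2 in experiment 2 alone, 0 to 1 with 1 mouse left out, and 2 (Gzmb and Klrk1) with isotype mouse 1 and anti-RGMb mouse 1 left out together, a choice made after their values were seen.

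Changes of sign were among members with differences near 0 or opposite in the experiments, and the cause was not tested. In isotype minus saline, Nkg7 was -0.22 with no replicate block and -0.20 in experiment 1, Gzma was 0.15, Klrd1 0.24 and Fasl 0.037 in experiment 2, and Klrd1 was 0.013 with a constant of 16 added and 0.010 with only the 2 groups compared. In anti-RGMb minus isotype, Gzmk was 0.14 and Klrd1 0.18 with no replicate block. There Gzmk was 0.093, Klrd1 0.29 and Klrk1 0.071 in experiment 1, and Gzma was -0.14, Prf1 -0.022, Nkg7 -0.35 and Fasl -0.077 in experiment 2. In anti-RGMb minus saline, Klrd1 was 0.12 in experiment 1, and Gzma was 0.018 and Klrk1 -0.084 in experiment 2. With both named mice left out, Klrd1 was 0.17 in isotype minus saline, Gzma -0.052 and Nkg7 -0.18 in anti-RGMb minus isotype, and Nkg7 -0.014 and Klrk1 -0.10 in anti-RGMb minus saline. With 1 mouse left out, isotype minus saline ranged from -0.094 to 0.17 for Klrd1 and -0.097 to 0.17 for Nkg7. Anti-RGMb minus isotype ranged from -0.037 to 0.23 for Gzma, -0.092 to 0.066 for Gzmk, -0.20 to 0.060 for Klrd1 and -0.084 to 0.18 for Nkg7. Anti-RGMb minus saline ranged from -0.15 to 0.035 for Klrd1, -0.10 to 0.17 for Klrk1 and -0.020 to 0.18 for Nkg7. The dim signal of Gzmk, Klrk1 and Fasl limits the size of difference these arrays can show.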
